A study of Oryza sativa with 12 samples.

Results

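The single mutants phr1 and phr3 of rice (Oryza sativa) were compared directly, 3 arrays against 3, among 12 arrays of 4 genotypes in all. The question was which genes depended on PHR1 and not on PHR3, and which on PHR3 and not on PHR1. The other 2 groups, the wild type Nipponbare (WT) and the triple mutant phr123, which carries phr1, phr2 and phr3 together, entered as 3 arrays each. Plants of all 4 groups grew in nutrient solution for 14 days with 200 µM phosphate and for another 7 days with none, and shoots were taken (the tissue label reads leaf). Each array is 1 of 3 biological repeats. The sources used here do not give the rice variety of the mutants, the kind of lesion or the number of lines behind each mutant. Starvation was common to all groups, and unstarved plants were not analysed here.

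PHR proteins are MYB transcription factors of the family named after Arabidopsis PHR1. They bind a short motif in the promoters of phosphate starvation genes and switch those genes on when phosphate runs low. SPX proteins hold PHR proteins back while phosphate is plentiful, and the SPX genes are themselves among the PHR targets, which makes a feedback loop. Other well known targets encode PHT1 transporters, which take up phosphate, and MGD enzymes, which make galactolipids that can replace phospholipids in membranes.

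The values were MAS5 signals, the linear brightness of a probe set after scaling of each array. On each array the trimmed mean was 500.1. Median signals ran from 68.6 to 85.6 in phr1 and from 64.4 to 75.8 in phr3. Arrays of phr1 correlated with each other with r from 0.948 to 0.960 across probe sets, arrays of phr3 with r from 0.954 to 0.957, and the 9 pairs between the mutants with r from 0.940 to 0.954. For RNA quality, the GAPDH control gave a log2 difference between its 3' and 5' probe sets of 2.20 ± 0.358 in phr1 and 2.05 ± 0.608 in phr3 (mean ± SD, n = 3 each, exact 2-sided permutation p = 0.7). Of 7 such array measures none had an exact p under 0.2, where 3 against 3 arrays cannot go below 0.1. The leaf mesophyll markers RBCS, LHCP and CAB2R summed to 263775 to 300496 in phr1 and 228655 to 283003 in phr3, with 0 of 3 called. Among 4 root markers matched (Lsi1, Lsi2, IRT1 and PHT1-6), 2 lay above the reporter level on all 3 arrays in each of phr1, phr3 and WT, and their summed signal was 1091 to 1287 in phr1 and 1022 to 1375 in phr3. The reporter level is the 95th percentile of control probe sets that carry sequences from other organisms. No guard cell marker was matched.

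The genes that the lines are named after were examined first. PHR1 (LOC4332726) signal was 404, 514 and 559.5 on the phr1 arrays, 1204, 1148 and 1135 on the phr3 arrays, and 877, 1096 and 1154 in WT. The phr1 arrays lay below all others of the 3 groups, and PHR1 was 2.38-fold lower in phr1 than in phr3 (log2 difference -1.25 ± 0.16 SE, limma adjusted p = 0.00163). PHR3 (LOC4328249) signal was 426, 409.7 and 408 in phr1, 57.7, 119 and 94.5 in phr3, and 462, 469 and 387 in WT, so here the phr3 arrays were the low ones. The log2 difference of PHR3 was 2.26 ± 0.60, a 4.79-fold higher signal in phr1, but limma gave an adjusted p of 0.0838. The arrays labelled phr123 share in the estimate of the spread, and there PHR3 read 1187 in replicate 1 against 173 and 118 in replicates 2 and 3. The PHR3 signal of the array labelled phr123 replicate 1 was thus above every WT array and unlike the other 2 with that label. The identity of that array is therefore in doubt. Signal alone cannot settle this, as the kind of lesion is not given, and PHR1 kept signal in phr123 (569, 753 and 811). The PHR2 signal of that array, 18.3 on the brighter probe set, was low like the 43.8 and 24.3 of the other 2. Its SPX1 signal of 1940 and MGD2 signal of 105.6 were also near theirs (1784 and 1790, and 105.4 and 80.7). Some other probe sets, described at the end, differed. Without that doubtful array the adjusted p was 0.000456, and without phr123 replicate 3 it was 0.048. PHR2, which the labels of the 2 single mutants do not name, did not pass the test. Its brighter probe set read 1645, 1898 and 1986 in phr1 and 2107, 1939 and 1968 in phr3, and the 95% interval of the log2 difference ran from -0.62 to 0.37. The sources used here do not say where these probe sets lie relative to the lesions.

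**Figure D1:**
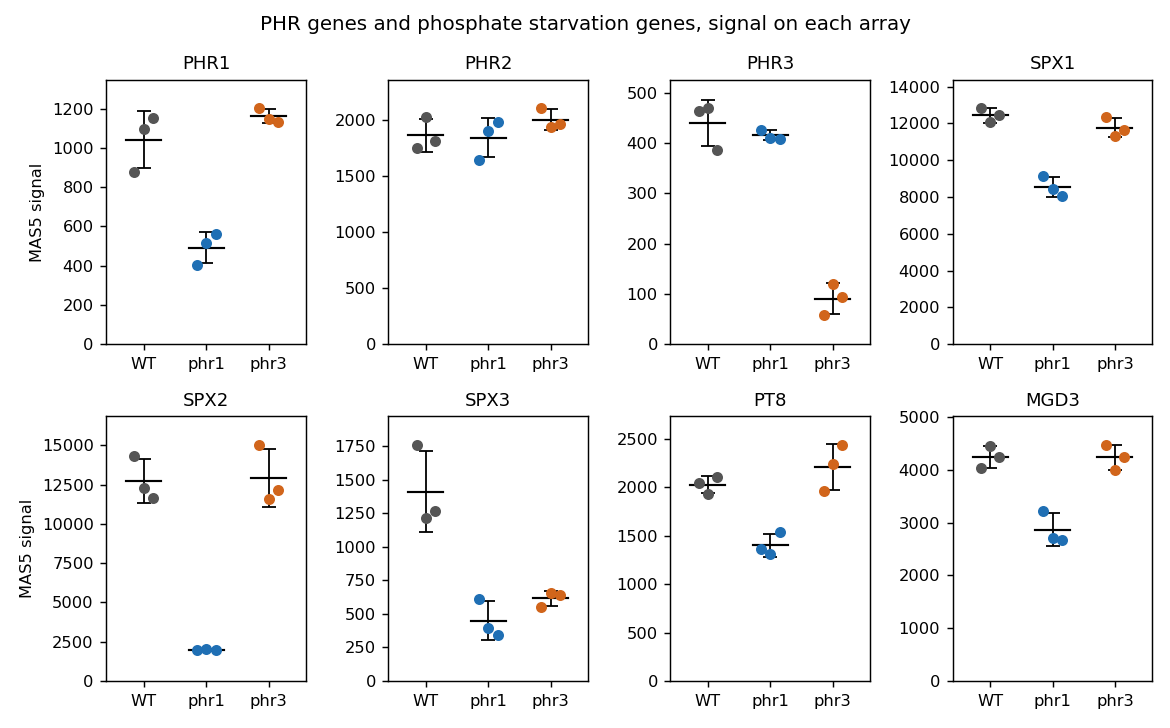
MAS5 signal (vertical axis, linear) on each of the WT, phr1 and phr3 arrays for the 3 PHR genes and 5 phosphate starvation genes. Points are arrays, bars are the mean ± SD of 3 arrays; SPX2 lies between 1953 and 2058 in phr1 and at 11559 or more in WT and phr3, while PHR3 is low in phr3 alone among these groups.

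Of 28597 probe sets tested, 479 differed between phr1 and phr3 at a limma adjusted p under 0.05, which is 1.68% of those tested. In phr1, 194 were higher (0.678%), and in phr3, 285 were higher (0.997%). The median called difference was 1.61-fold for those higher in phr1 and 1.60-fold for those higher in phr3. A difference of at least 2-fold was reached by 61 probe sets higher in phr1 and 62 higher in phr3. All 479 had the 3 arrays of one mutant above the 3 of the other, as did 17.9% of all probe sets tested. The array annotation named 1 gene for 374 of the 479. These stood for 363 genes, 81 of them with a gene name in addition to a locus number. Of 60 called genes with further tested probe sets, 52 had every probe set moving the same way.

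These counts depended on single arrays and on the scaling. Without the array labelled phr123 replicate 1, whose identity is in doubt, 580 probe sets were called, 255 higher in phr1 and 325 higher in phr3, and 477 of the 479 stayed called. The total was 162 without phr1 replicate 2, 240 without phr3 replicate 2 and 210 without phr3 replicate 3, and those higher in phr1 were 117 without phr1 replicate 1. When each array was centred on its own median, the median difference over all tested probe sets moved from -0.01 to -0.12, and the share of calls higher in phr1 from 40.5% to 21.2%. Small differences in favour of phr1 are therefore given below with their centred adjusted p where the call was lost.

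**Figure D2:**
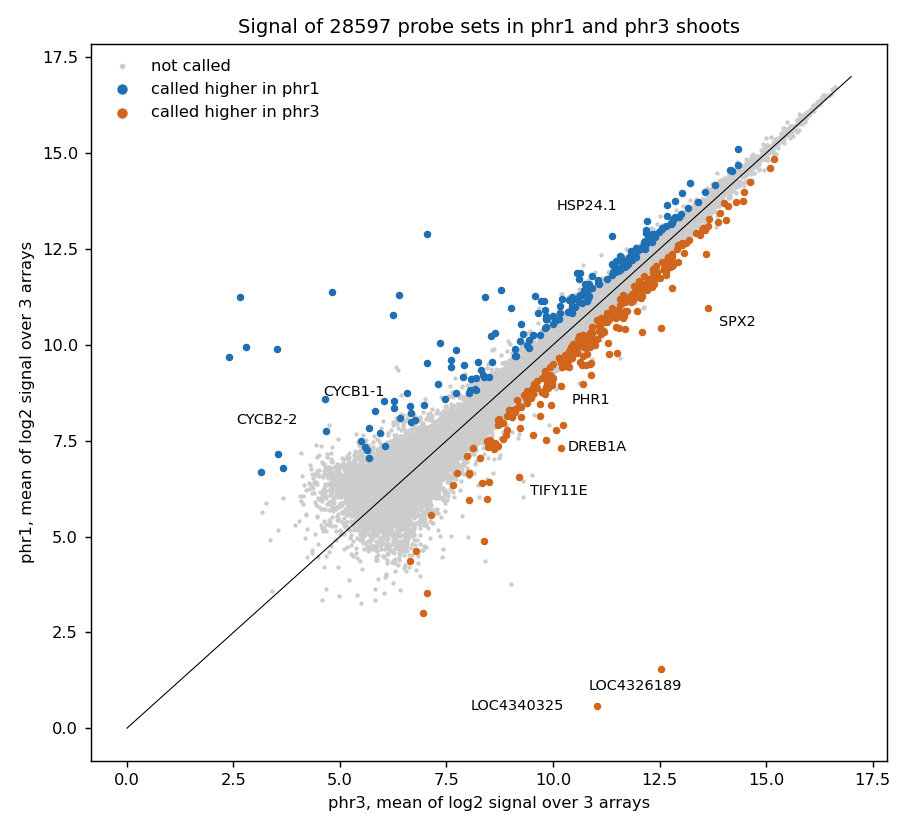
Mean log2 MAS5 signal over 3 arrays in phr3 (horizontal axis) and phr1 (vertical axis) for the 28597 probe sets tested; the line marks equal signal. The 194 probe sets called higher in phr1 lie above the line and the 285 called higher in phr3 below it, and the 2 lowest orange points are the locus numbers LOC4326189 and LOC4340325.

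Against WT, 267 probe sets were called in phr1 (0.934% of those tested) and 569 in phr3 (1.99%). The 2 comparisons share the 3 WT arrays, and the direct comparison of the mutants is the test of whether the changes from WT differ, since WT cancels in it. By that test, 71 probe sets changed in phr1 and not in phr3: they were called against WT in phr1, not in phr3, and the difference between the mutants was called in the same direction. Of the 71, 28 were higher in phr1 than in phr3 and 43 lower. The converse group, changed in phr3 and not in phr1, held 200 probe sets, of which 134 were higher in phr3 and 66 lower. A further 18 were called against WT in both mutants in the same direction but to unequal extent, 0 were called in opposite directions, and 190 were called against WT in neither. The count of 71 fell to 30 without phr1 replicate 2, to 38 without phr3 replicate 3 and to 47, 39 and 44 without WT replicates 1, 2 and 3. The count of 200 fell to 91 without phr1 replicate 2, to 112 without phr3 replicate 2, to 100 without phr3 replicate 3 and to 101 after median centring.

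The phosphate starvation genes that differed, SPX2, SPX1, PT8 and MGD3, were lower in phr1, and their log2 differences of phr3 from WT lay between -0.08 and 0.12. The widest gap was that of SPX2 (LOC4328654), a gene for one of the SPX proteins. Its signal was 1967, 2058 and 1953 in phr1, 15031, 11559 and 12130 in phr3, and 14335, 12262 and 11643 in WT. The phr1 arrays stood far below the rest, and the phr3 and WT ranges overlapped. SPX2 was 6.44-fold lower in phr1 than in phr3 (log2 difference -2.69 ± 0.12 SE, limma adjusted p = 8.85e-08), and the log2 difference of phr3 from WT was 0.01 (adjusted p = 0.984). SPX1, another SPX gene, read 9119, 8447 and 8078 in phr1, 12350, 11338 and 11637 in phr3, and 12832, 12049 and 12432 in WT. It was 1.38-fold lower in phr1 than in phr3 (log2 difference -0.46 ± 0.07, adjusted p = 0.00565). Without the mean-variance trend the adjusted p of SPX1 was 0.0514.

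PT8, a PHT1 phosphate transporter gene, read 1360, 1312 and 1536 in phr1, 1967, 2237 and 2440 in phr3, and 2045, 1935 and 2108 in WT on its brighter probe set. Phr1 was again the low group, 1.58-fold below phr3 (log2 difference -0.66 ± 0.10, adjusted p = 0.00341). A further PT8 probe set had a log2 difference of -0.55 (adjusted p = 0.083, and 0.0036 without phr3 replicate 1). MGD3, an enzyme of galactolipid synthesis, read 3221, 2710 and 2663 in phr1, 4477, 4004 and 4242 in phr3, and 4032, 4448 and 4253 in WT. It was 1.48-fold lower in phr1 than in phr3 (log2 difference -0.57 ± 0.09, adjusted p = 0.00549). The calls of SPX2, PT8 and MGD3 held in all 22 alternative settings.

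For the remaining phosphate genes described here the direct comparison of the mutants was not past the threshold. SPX3, a further SPX gene, was lower than WT in both mutants, with log2 differences of -1.67 in phr1 (adjusted p = 0.00897) and -1.18 in phr3 (adjusted p = 0.044). Its signal was 613, 392 and 346 in phr1 and 552, 654 and 643 in phr3, and the 95% interval between the mutants ran from -1.09 to 0.10. MGD2, also a galactolipid enzyme, was lower than WT in phr1 (log2 difference -0.70, adjusted p = 0.0321), but its difference from phr3 of -0.34 had an adjusted p of 0.306. PHT1-4, a transporter, had a log2 difference from WT of -0.72 in phr1 (adjusted p = 0.0059) and one of -0.39 from phr3 (adjusted p = 0.115, and 0.0338 without phr3 replicate 2). SPX5, a further SPX gene, read 1915, 1216 and 1626 in phr1, 2547, 2350 and 2312 in phr3, and 3090, 2632 and 2757 in WT on its brighter probe set. The phr1 arrays lay below all phr3 and WT arrays, also on its other probe set, but the adjusted p of the difference between the mutants was 0.719 and 0.568 on the probe sets. Its signal on the phr123 arrays, which share in the estimate of the spread, ran from 4.9 to 45.7 on the brighter probe set. Without the phr123 arrays the adjusted p was 0.0483 and 0.0242, and without the array labelled phr123 replicate 1 it was 0.04 on the brighter probe set and 0.295 on the other. For MGD1 and PHO1-2 the 95% intervals of the log2 difference on the brighter probe set were -0.13 to 0.33 and -0.67 to 0.11. The 2 probe sets of PHT1-1, a transporter, had intervals of -0.63 to -0.11 and -0.75 to 0.26, and they disagreed on phr3 against WT, with log2 differences of 0.43 and -0.32 that were not called (adjusted p = 0.096 and 0.658). PHT1-12, also a transporter, had a log2 difference of 1.80 toward phr1, with an interval of 0.29 to 3.31 (adjusted p = 0.263). As 1 of its phr3 arrays was at or below the reporter level, that size is uncertain. By list, 2 of 7 SPX and PHO1 genes, 1 of 6 PHT1 genes and 1 of 3 MGD genes were called higher in phr3. None of these lists had a gene called higher in phr1. Over genes, each represented by its brightest probe set, 1.42% of 15469 were called higher in phr3 and 0.802% higher in phr1. The lists hold named genes only, and 81 of the 2171 named genes tested were called on any probe set, in either direction. The median log2 difference was -0.46 for the SPX and PHO1 genes, -0.23 for PHT1 and -0.34 for MGD, against -0.02 over all genes.

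A few genes outside phosphate transport were also changed in phr1 and not in phr3. GRXC7, a glutaredoxin, read 1753, 1685 and 1767 in phr1, 2653, 2680 and 2304 in phr3, and 3328, 2736 and 2862 in WT. Its log2 difference between the mutants was -0.55 ± 0.10 (adjusted p = 0.011), and it was lost without phr1 replicate 2 (adjusted p = 0.0596) and without phr3 replicate 2 (0.0567). CYP701A8, a cytochrome P450 of the ent-kaurene oxidase family, read 272, 283 and 236 in phr1 and 358, 411 and 499 in phr3, with WT between 409 and 424. Its log2 difference was -0.67 ± 0.13 (adjusted p = 0.0203). That call was lost without phr1 replicate 2 or 3 (adjusted p = 0.0525 and 0.0616) and without phr3 replicate 2 or 3 (0.0598 and 0.0854), and without the phr123 arrays (0.0661).

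In the other direction, 4 named genes were raised in phr1 and not in phr3. PMM, phosphomannomutase, an enzyme on the route to GDP-mannose and ascorbate, read 3731, 3673 and 3279 in phr1, 2208, 1949 and 1666 in phr3, and 2439, 2551 and 2168 in WT. Its phr1 arrays lay above all phr3 and WT arrays, with a log2 difference between the mutants of 0.88 ± 0.12 (adjusted p = 0.00193). CSLH1, a cellulose synthase-like gene of a family that makes mixed-linkage glucan in grasses, read 2612, 2408 and 2530 in phr1, 1641, 1404 and 1772 in phr3, and 1375, 1598 and 1490 in WT. Its log2 difference was 0.65 ± 0.10 (adjusted p = 0.00543), and 0.176 was the adjusted p after median centring. GRXC15, a glutaredoxin, and Cht11, a chitinase, had log2 differences of 0.81 ± 0.18 (adjusted p = 0.0333) and 0.49 ± 0.09 (adjusted p = 0.0177). After median centring their adjusted p was 0.15 and 0.282. GRXC15 was also lost without phr1 replicates 2 and 3, phr3 replicates 1 and 3 and WT replicate 3 (adjusted p 0.0526 to 0.137) and with replicate number as a block (0.0544), and Cht11 without replicates 1 and 2 of either mutant (0.0559 to 0.073).

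Genes raised in phr3 and not in phr1 made up the larger group, and 5 genes of the JAZ list named here, TIFY11B, TIFY11D, TIFY11E, TIFY10A and TIFY6B, belonged to it. JAZ proteins, which carry the TIFY domain, hold back jasmonate-responsive transcription factors and are themselves quickly induced by jasmonate. Of 12 JAZ and TIFY genes tested, 6 were called higher in phr3 than in phr1 and 0 higher in phr1. The median log2 difference of the list was -0.80. Over all 15469 genes tested, 1.42% were called higher in phr3 and 0.802% higher in phr1. TIFY11B had 1229, 1134 and 1534 in phr1, 2738, 6495 and 4728 in phr3, and 951, 808 and 880 in WT. All 3 phr3 arrays exceeded all others of these groups, by 3.40-fold over phr1 (log2 difference -1.77 ± 0.23, adjusted p = 0.00163), and its further probe set had a log2 difference of -1.73 (adjusted p = 0.00298). TIFY11D had 1006, 816 and 804 in phr1, 1424, 4140 and 2831 in phr3, and 788, 718 and 788 in WT (log2 difference -1.55 ± 0.26, adjusted p = 0.00844). TIFY11E, its neighbour among the tested genes in the RefSeq gene order, had 124, 59.9 and 114 in phr1, 206, 1605 and 629 in phr3, and 60.0, 58.0 and 71.0 in WT (log2 difference -2.65 ± 0.52, adjusted p = 0.0213). As 1 of its phr1 arrays was at or below the reporter level, that size is uncertain.

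TIFY11A read 45.4, 58.8 and 93.2 in phr1, 136, 700.5 and 460.5 in phr3, and 52.1, 116 and 96.9 in WT. With 2 of the 3 phr1 arrays at or below the reporter level, the size of its log2 difference of -2.49 is uncertain (adjusted p = 0.0231), and it was called against WT in neither mutant (adjusted p = 0.0505 in phr3). TIFY10A and TIFY6B differed less, with log2 differences of -0.61 ± 0.11 (adjusted p = 0.0125) and -0.53 ± 0.10 (adjusted p = 0.0198). In the 4 TIFY11 genes the lowest phr3 array was replicate 1 and the highest was replicate 2. The same held in TIFY10A and, among genes described below, in DREB1A, DREB1B, DREB1E, DREB1G, ABA8OX1, MAPK5, PP2C32 and NAC067. These genes thus varied together across the phr3 arrays and are not independent observations. TIFY6B, CPK4, CML27, CML30, CIPK31, NAC071, HOX1, PAL06 and 4CL5 had another order. The TIFY11B call held in every alternative tried. Without phr1 replicate 2 the adjusted p was 0.051 for TIFY11D, 0.107 for TIFY11E, 0.0903 for TIFY11A, 0.0698 for TIFY10A and 0.0896 for TIFY6B. Without phr3 replicate 2 it was 0.057 for TIFY11E, 0.093 for TIFY11A and 0.0549 for TIFY6B, and without phr3 replicate 3 it was 0.086, 0.102 and 0.0787 in the same order. TIFY11A was also lost without phr1 replicate 1 (0.0844), and TIFY6B without replicate 1 of phr1 (0.0563) or of phr3 (0.0559). Of 18 genes on the list for jasmonate and oxylipin synthesis, 0 were called in either direction, with a median log2 difference of -0.19 and a range from -0.56 to 0.28.

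**Figure D3:**
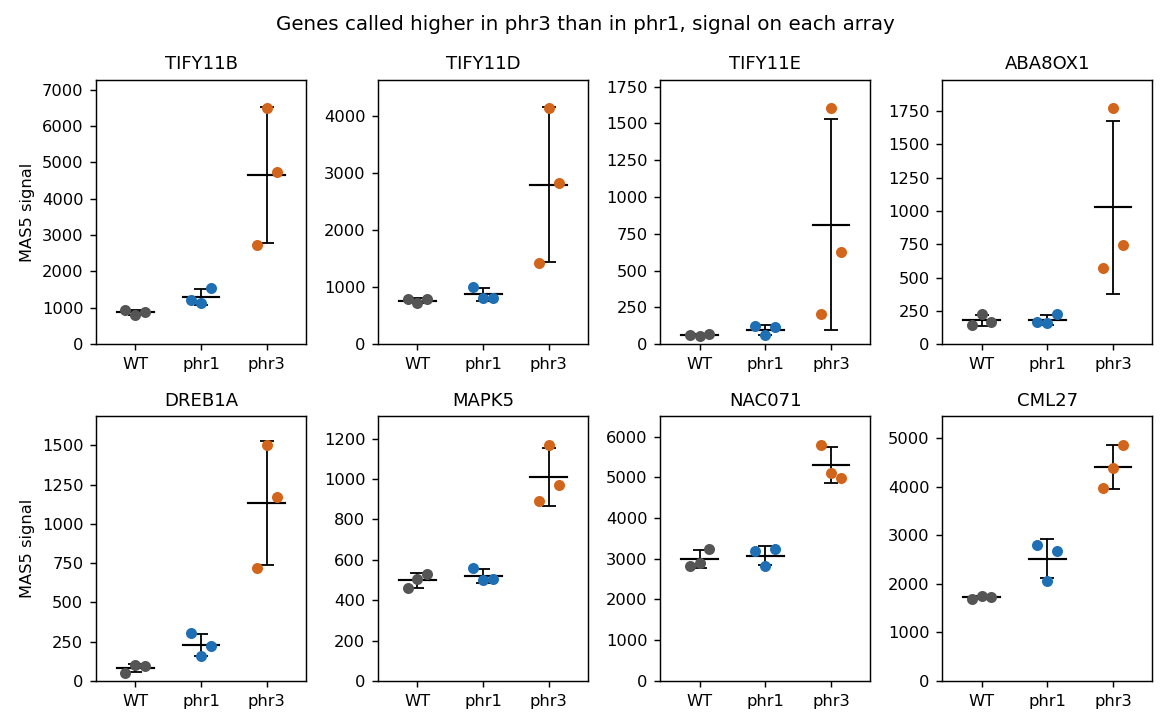
MAS5 signal (vertical axis, linear) on each WT, phr1 and phr3 array for 8 genes called higher in phr3 than in phr1. Points are arrays and bars the mean ± SD of 3 arrays; the 3 phr3 arrays lie above the 3 phr1 arrays in each panel, with a wide spread in the TIFY11 genes and ABA8OX1.

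DREB1A, also known as CBF3, encodes an AP2 factor of the cold response. It read 303, 159 and 225 in phr1, 719, 1505 and 1174 in phr3, and 51.9, 101 and 94.4 in WT. Both mutants exceeded WT on every array, and phr3 exceeded phr1 4.90-fold (log2 difference -2.29 ± 0.34, adjusted p = 0.00428), while the log2 difference of phr1 from WT, 1.48, had an adjusted p of 0.0692. Of the 6 DREB genes tested only DREB1A was called between the mutants, against 81 of all 2171 named genes in either direction. DREB1B, DREB1G and DREB1E, named after their values were seen, had log2 differences of -2.36 (adjusted p = 0.104), -2.88 (0.192) and -1.36 (0.0558), and were called above WT in phr3 (adjusted p = 0.000577, 0.0221 and 0.0237). ABA8OX1, which encodes an abscisic acid 8'-hydroxylase that breaks this hormone down, read 164, 162 and 227 in phr1, 569, 1773 and 746 in phr3, and 146, 225 and 164 in WT. The phr1 and WT ranges overlapped, and all 3 phr3 arrays lay above both (log2 difference -2.32 ± 0.34, adjusted p = 0.00326). The calls of DREB1A and ABA8OX1 held in all 21 alternatives that included them.

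Some kinase and calcium sensor genes, among them CPK4, MAPK5, CML27, CML30 and CIPK31, were higher in phr3 than in phr1. Of 67 calcium sensor and calcium kinase genes tested, 7 were called higher in phr3 and 0 higher in phr1, and of 16 MAP kinase genes 2 and 0. The share over all 15469 genes was 1.42% higher in phr3 and 0.802% higher in phr1. The median log2 differences of the calcium and MAP kinase lists were -0.16 and -0.13. CPK4, a calcium-dependent protein kinase, read 843, 557 and 675 in phr1, 1335, 1531 and 1155 in phr3, and 812, 678 and 822 in WT. Phr1 and WT overlapped, and CPK4 was 1.95-fold lower in phr1 than in phr3 (log2 difference -0.97 ± 0.16, adjusted p = 0.00654). MAPK5, a kinase of stress and defence signalling, read 561, 498 and 505 in phr1, 889, 1169 and 972 in phr3, and 460, 504 and 531 in WT (log2 difference -0.95 ± 0.12, adjusted p = 0.00189). CML27, a calmodulin-like calcium sensor, was above WT in both mutants, at 2802, 2053 and 2679 in phr1, 3968, 4373 and 4860 in phr3, and 1690, 1742 and 1728 in WT. The phr3 rise of CML27 was the larger by a log2 difference of -0.82 ± 0.11 (adjusted p = 0.00273). CML30 had a log2 difference of -0.71 (adjusted p = 0.00285), and CIPK31, a kinase that works with calcineurin B-like sensors, one of -0.75 (adjusted p = 0.00275).

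Of 53 PP2C phosphatase genes, whose family includes negative regulators of abscisic acid signalling, 3 were called higher in phr3 and 0 higher in phr1. Among all 2171 named genes tested, 81 were called in either direction. PP2C32 rose in both mutants, reading 944, 904 and 1104 in phr1, 1540, 2276 and 1884 in phr3, and 533, 587 and 550 in WT. Its rise was larger in phr3 (log2 difference -0.94 ± 0.14, adjusted p = 0.00433). The calls of CPK4, MAPK5, CML27, CML30, CIPK31 and PP2C32 held in all 22 alternatives. Other called members of these lists held less well. CIPK21 lost its call in 12 of the 22, PP2C35 in 5, PP2C48 in 3 and MAPK6 in 2.

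Several transcription factor genes were also higher in phr3. NAC071 and NAC067 were the 2 called of 6 NAC genes tested. NAC071 read 3177, 2822 and 3232 in phr1, 5797, 5112 and 4994 in phr3, and 2820, 2898 and 3240 in WT, so that phr1 and WT overlapped and phr3 stood above both (log2 difference -0.78 ± 0.09, adjusted p = 0.00083). NAC067 read 2447, 2045 and 2200 in phr1 and 3435, 4033 and 3445 in phr3 (log2 difference -0.71 ± 0.11, adjusted p = 0.00578). HOX1, a homeodomain-leucine zipper gene, read 1156, 1060 and 967 in phr1 and 1794, 1755 and 1802 in phr3 (log2 difference -0.75 ± 0.12, adjusted p = 0.00698). NAC071, NAC067 and HOX1 stayed called in every alternative tried. In the homeobox list 2 of 33 genes were called, both higher in phr3, against 81 of all 2171 named genes in either direction. Of 6 WRKY genes matched by name 0 were called between the mutants, although 3 were called above WT in phr3 and 0 in phr1. Members of these families without a gene name were not examined as part of the lists.

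Enzymes of phenylpropanoid synthesis, the route to lignin and flavonoids, included PAL06 and 4CL5 among the genes higher in phr3. These were 2 called of 27 tested, where 81 of all 2171 named genes were called in either direction. PAL06, a phenylalanine ammonia-lyase, read 1771, 1802 and 2078 in phr1, 3110, 3422 and 3821 in phr3, and 2907, 2564 and 2225 in WT. WT lay between the mutants, with log2 differences from WT of -0.44 in phr1 (adjusted p = 0.0975) and 0.43 in phr3 (adjusted p = 0.0707), while the direct difference of -0.87 ± 0.11 was called (adjusted p = 0.00163). 4CL5, a 4-coumarate-CoA ligase, read 684, 489 and 543 in phr1, 939.5, 1058 and 1069 in phr3, and 532, 598 and 691 in WT (log2 difference -0.85 ± 0.14, adjusted p = 0.00578). The calls of PAL06 and 4CL5 held in all 22 alternatives. The clock genes PRR95, a pseudo-response regulator, and GI (GIGANTEA) were 2 called of 21 clock and flowering genes. Their log2 differences were -0.71 ± 0.12 (adjusted p = 0.00881) and -0.53 ± 0.10 (adjusted p = 0.0152). Against WT neither gene was called in either mutant. The adjusted p against WT in phr1 and phr3 was 0.407 and 0.114 for PRR95 and 0.283 and 0.302 for GI. PRR95 was lost without phr3 replicate 3 (adjusted p = 0.0505), and GI after median centring (0.102) and without phr1 replicate 2 (0.0622), phr3 replicate 1 (0.0527) and phr3 replicate 3 (0.0651).

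Genes that were lower in phr3 included heat shock genes and their regulators. HSP24.1, a small heat shock protein, read 9844, 9187 and 9835 in phr1, 5178, 5141 and 4008 in phr3, and 10940, 12718 and 11478 in WT. It was 2.03-fold higher in phr1 than in phr3 (log2 difference 1.02 ± 0.13, adjusted p = 0.00152), a call held in all 22 alternatives, and phr3 had a log2 difference from WT of -1.30. HSFB2A, a class B heat stress factor, was below WT in both mutants, at 1014, 1161 and 1633 in phr1, 564, 706 and 614 in phr3, and 2119, 2372 and 2296 in WT. The fall was larger in phr3, with a log2 difference between the mutants of 0.99 ± 0.16 (adjusted p = 0.00551, and 0.0565 after median centring). HSFB2B, a related factor, was at or below the reporter level on all 3 phr3 arrays and at least 2.91-fold higher in phr1 (adjusted p = 0.0333). That call was lost after median centring (0.0876), after quantile normalization (0.079), without the phr123 arrays (0.0513) and without phr1 replicates 2 and 3, each phr3 replicate and WT replicate 3 (adjusted p 0.0521 to 0.154).

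The DnaJ cochaperone DJC27 and the small heat shock protein HSP16.0 were higher in phr1 by log2 differences of 0.81 ± 0.14 (adjusted p = 0.0103) and 0.70 ± 0.13 (adjusted p = 0.0148). Both were lost after median centring (adjusted p = 0.0772 and 0.118), without phr1 replicate 2 (0.0585 and 0.0617) and without phr3 replicate 3 (0.0506 and 0.0711), and HSP16.0 also without phr3 replicate 1 (0.0516). Not all heat genes moved this way. HSP18.8 read 15049, 12697 and 13469 in phr1 and 21324, 22471 and 23660 in phr3, which was higher in phr3 (log2 difference -0.71 ± 0.11, adjusted p = 0.00506), and HSFA3 was higher in phr3 by a log2 difference of -1.36 ± 0.26 (adjusted p = 0.0163). The HSFA3 call was lost without phr1 replicate 2 (0.0774), phr3 replicate 2 (0.0717) and phr3 replicate 3 (0.0625). HSFA3 was called against WT in neither mutant (adjusted p = 0.331 in phr1 and 0.269 in phr3). Of 32 heat shock protein and cochaperone genes, 4 were called higher in phr1 and 1 higher in phr3, with a median log2 difference of 0.25. The fourth of these 4, a chaperonin gene, had a log2 difference of 0.36 (adjusted p = 0.047), lost in 15 of 22 alternatives, and after median centring (0.446) it was lost like DJC27 and HSP16.0, so that HSP24.1 alone of the 4 kept its call there. Of 19 heat stress factor genes, 2 were called higher in phr1 and 1 higher in phr3, with a median of -0.07. The share over all 15469 genes tested was 0.802% higher in phr1 and 1.42% higher in phr3.

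A few cell division genes, CYCB1-1, CYCB2-2 and CDKB2-1, were lower in phr3 than in phr1. CYCB1-1, a B-type cyclin of mitosis, read 326, 398 and 294 in phr1, 109.9, 116 and 76.8 in phr3, and 264, 230 and 324 in WT. The phr3 arrays were the low ones, 3.39-fold below phr1 (log2 difference 1.76 ± 0.25, adjusted p = 0.00283). That call held in all 21 alternatives that included the gene, with log2 differences from 1.57 to 1.87. CYCB2-2, another mitotic cyclin, read 188, 237 and 226 in phr1 and 20.2, 11.7 and 71.5 in phr3, with 181, 121 and 120 in WT. As 2 of its phr3 arrays were at or below the reporter level, the size of its log2 difference of 3.08 is uncertain (adjusted p = 0.0164). It was lost without phr1 replicate 2 (0.0835) and phr1 replicate 3 (0.0528). CDKB2-1, a cyclin-dependent kinase of mitosis, read 390.0, 280.5 and 249 in phr1 and 123, 90.1 and 92.9 in phr3 (log2 difference 1.57 ± 0.32, adjusted p = 0.0261). It was lost without phr1 replicate 1 or 2 (0.101 and 0.0865) and without phr3 replicate 2 or 3 (0.0884 and 0.0945).

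These were the 3 called of 73 cyclin, CDK, kinesin and DNA replication genes, against 81 of all 2171 named genes in either direction. All 3 were higher in phr1, and the median log2 difference of the list was 0.14. The 3 genes are also markers of dividing tissue. The 5 dividing-tissue markers, with OSH1 and PCNA, summed to a signal of 1391 to 1499 in phr1, 582 to 668 in phr3 and 1041 to 1329.9 in WT. That sum contains the 3 called genes, so it is not separate from their calls. Neither OSH1 nor PCNA was called, and 4 of the 5 markers were bright enough to be tested. The part of dividing tissue in the other differences was not tested. In whole shoots, fewer cells of a type and less RNA per cell cannot be told apart.

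**Figure D4:**
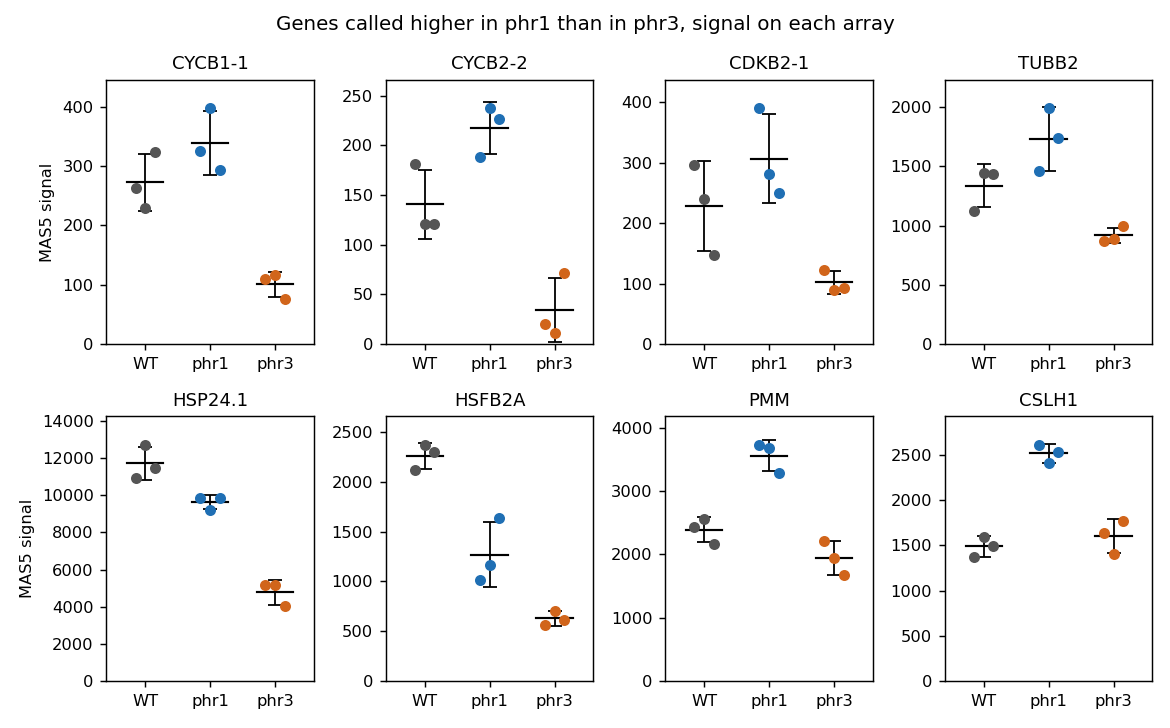
MAS5 signal (vertical axis, linear) on each WT, phr1 and phr3 array for 8 genes called higher in phr1 than in phr3. Points are arrays and bars the mean ± SD of 3 arrays; in the cyclin, CDKB2-1 and HSP24.1 panels phr3 is the low group, while in the PMM and CSLH1 panels phr1 is the high group.

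Some cytoskeleton and ribosome genes were higher in phr1 than in phr3. TUBB2, a beta tubulin, read 1459, 1990 and 1740 in phr1, 867, 889 and 993 in phr3, and 1126, 1441 and 1436 in WT (log2 difference 0.91 ± 0.15, adjusted p = 0.00797). It was lost after median centring (0.0728) and without phr1 replicate 2 (0.0545). Of 20 tubulin and actin genes 3 were called, and of 34 ribosome and translation genes 5, all higher in phr1. Over all 15469 genes tested, 0.802% were called higher in phr1. After median centring the adjusted p of the other 2 cytoskeleton genes called, ACT3, an actin, and ADF5, an actin depolymerizing factor, was 0.396 and 0.51, so none of the 3 calls stood there. RPL3, a large-subunit ribosomal protein, read 5090, 5676 and 5072 in phr1 and 4179, 3423 and 3718 in phr3, with 4823, 4316 and 4833 in WT (log2 difference 0.49 ± 0.09, adjusted p = 0.0134). The median log2 differences of the lists were 0.21 and 0.27. After median centring the adjusted p of RPL3, RPL27, RPS3A, RACK1A and eIF-4A-1 was 0.327, 0.326, 0.393, 0.457 and 0.458, so none of the 5 calls stood under that scaling. RPL3 was also lost without phr1 replicate 2 (0.0774), phr3 replicate 2 (0.062) and phr3 replicate 3 (0.0544).

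Other lists held few or no calls. The 20 photosynthesis and carbon fixation genes had 0 called and log2 differences between -0.23 and 0.15, and the 19 chlorophyll synthesis and breakdown genes 0 called. Response regulators and cytokinin receptors (19 genes), gibberellin and brassinosteroid genes (17), starch and sucrose genes (51), nitrogen and potassium uptake genes (39), iron, zinc and manganese genes (37) and aquaporins (20) also had 0 called. Over all tested probe sets, 3875 had an unadjusted limma p under 0.05 for the difference between the mutants.

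**Figure D5:**
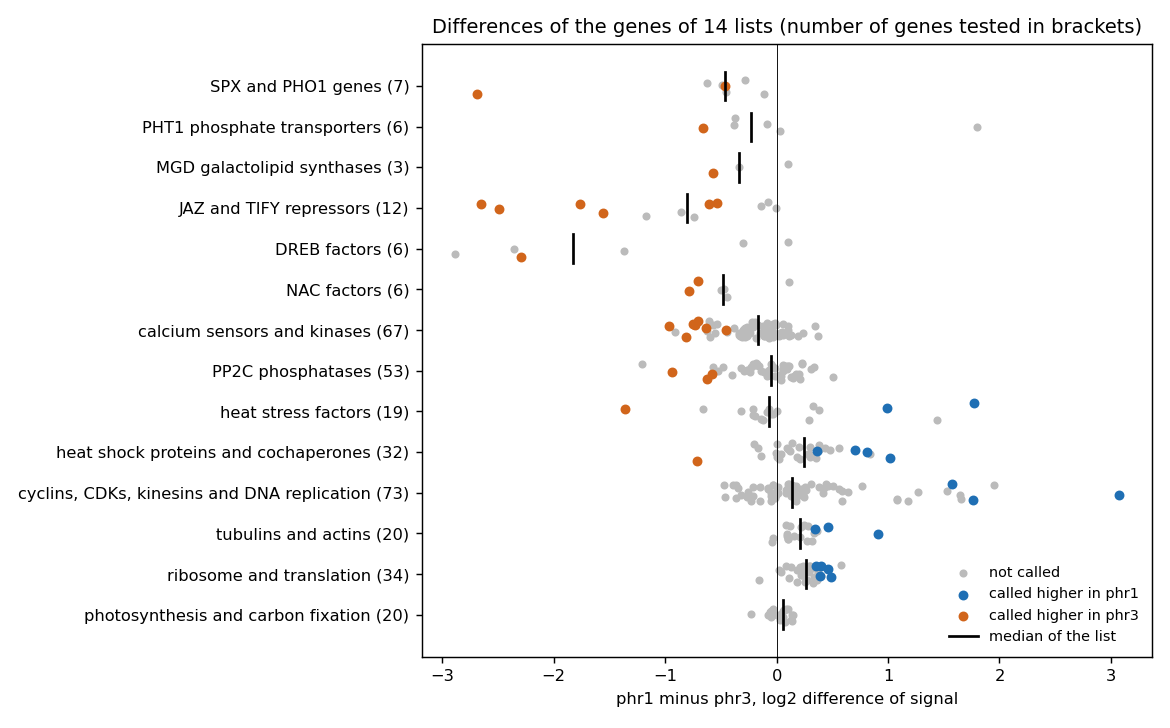
Log2 difference in signal, phr1 minus phr3 (horizontal axis), of every tested gene in 14 gene lists (rows, with the number of genes tested). Orange and blue points passed the test, grey points did not, and the black bar is the median of the list; the medians of the JAZ and DREB rows lie to the left of 0 and those of the ribosome and tubulin rows slightly to the right.

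The widest gaps were in probe sets near background in one mutant. LOC4326189, a locus with no gene name in the tables used, read 2.6, 1.6 and 6.1 in phr1, 4815, 7834 and 5596 in phr3, and 45.8, 34.5 and 38.5 in WT. All phr1 and WT arrays were at or below the reporter level, and the signal was at least 78.8-fold higher in phr3 than in phr1 (adjusted p = 0.0242). That call was lost without phr1 replicate 1 or 2 (0.0713 and 0.103), without each phr3 replicate (0.0571 to 0.0861) and with robust moderation (0.118). The phr123 arrays, which share in the estimate of the spread, read 2.0, 8776 and 8642 here. Without the array labelled phr123 replicate 1 the adjusted p was 3.77e-09, and without all phr123 arrays it was 1.19e-07. LOC4340325, likewise without a name, read 4.2, 2.6 and 0.3 in phr1, 2238, 2317 and 1770 in phr3, and 51.3, 48.1 and 4.6 in WT. It was at least 27.7-fold higher in phr3 (adjusted p = 0.000113), and it was called in all 21 alternatives that included it. On the opposite side, the locus numbers without a name with the widest gaps were LOC9268308 and LOC4329409. LOC9268308 read 1659, 1718 and 299 in phr1, 1.9, 76.4 and 10.5 in phr3, and 22.2, 57.0 and 3.7 in WT (adjusted p = 0.0339). LOC4329409 read 103, 136 and 203 in phr1, 50.3, 4.7 and 6.6 in phr3, and 108, 63.4 and 42.5 in WT (adjusted p = 0.0296). In both, 2 of the 3 phr3 arrays were at or below the reporter level, so the size of the gap is uncertain. LOC9268308 lost its call in 6 of 21 alternatives (adjusted p 0.0553 to 0.151) and LOC4329409 in 8 of 21 (0.0602 to 0.159), each including some that left out 1 array of a mutant. A further 3 probe sets without a gene in the annotation, singled out after their values were seen, were bright in phr1 and at or below the reporter level in phr3. One of them read 1696, 3553 and 2419 in phr1 and was at least 43.7-fold higher there than in phr3 (adjusted p = 0.00541). Another read 801, 713 and 985 in phr1 and was at least 14.8-fold higher (adjusted p = 9.89e-05). The remaining one read 921, 1048 and 1011 in phr1 and was at least 17.8-fold higher (adjusted p = 0.00213).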

How the data were processed

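RNA of 12 shoot samples was measured on the Affymetrix rice array. The deposited values are linear signal intensities that the authors made with MAS5, which the submitters' processing notes name without a version. On every array the trimmed mean was 500.1, so arrays had been scaled before deposit. All tests were run here with limma 3.58.1 in R 4.3.3.

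The array holds 57381 probe sets, of which 123 AFFX and 64 reporter controls were left out. The 28597 of the remaining 57194 whose mean log2 signal was at or above the median (a signal of 49.4) were tested. A model with 1 mean per genotype was fitted to all 12 arrays (8 residual degrees of freedom) with lmFit and eBayes with a mean-variance trend. P-values were adjusted by Benjamini-Hochberg over all probe sets tested, with a threshold of 0.05. They measure the spread between these samples, and the number of arrays limits the precision. The procedure was tested on simulated data. The differences are phr1 minus phr3. A probe set at or below the reporter level on all 3 arrays of a mutant has only a bound there: "at least N-fold" sets the mean log2 signal of the brighter mutant against the higher of that level and the probe set's own signal. One reporter whose probe sets lit up in phr123 was not used for that level.

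The array annotation gave 1 gene for 22436 probe sets, several for 95 and none for 34663. Names came from the RefSeq table's symbols and synonyms; 2171 of the 15469 genes tested had one. For lists, the brightest probe set stood for its gene. A gene whose synonym PT2 belongs to a growth factor was left out of the PHT1 list. Genes were named by rule: the PHR genes, the 15 largest called differences in each direction with a gene name and no overlap of arrays, 5 per direction of each group changed in a single mutant, phosphate genes, the 5 smallest adjusted p of each list, and 2 per direction without a name. The members and lists were chosen with earlier results of these data known. Alternatives covered scaling, filter, pseudocount, moderation, the arrays used, a replicate block and leaving out each array.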

Additional observations from a re-analysis of the deposited data

How the results depend on the processing

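The 5 counts were recomputed under 22 alternatives, or 21 for the groups changed in a single mutant, which need WT. Median centring gave 278 called in all, 59 higher in phr1 and 101 changed in phr3 and not in phr1. Without a mean-variance trend the counts were 169 in all, 65 higher in phr1, 104 higher in phr3, 27 changed in phr1 only by the rule and 83 changed in phr3 only by the rule. With the phr1 and phr3 arrays alone they were 294, 120 and 174, with no WT to define the groups changed in a single mutant. The cause of these shifts was not tested, except that the last setting has fewer arrays. Leaving out 1 array at a time gave 162 to 580 called in all, 58 to 255 higher in phr1, 104 to 325 higher in phr3, 30 to 98 changed in phr1 and not in phr3, and 91 to 236 changed in phr3 and not in phr1. The share of calls higher in phr1 ran from 21.2% under median centring to 44.9% without the phr123 arrays.

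With replicate number as a block, 390 were called in all, 364 of them also called without it, with 156 higher in phr1, 234 higher in phr3, 64 changed in phr1 and not in phr3 and 171 changed in phr3 and not in phr1. Same-numbered phr1 and phr3 arrays did not deviate together (r across probe sets -0.05, -0.04 and -0.01), so the numbers were not taken as pairs. Of 70 named probe sets that were called, 23 kept their call in all alternatives that included them, and none of the 90 named reversed a call. Of the 70, 40 lost their call without the mean-variance trend, among them SPX1, TIFY11D, TIFY11E, TIFY11A, TIFY10A, TIFY6B, HSP18.8, GRXC7, PRR95, CDKB2-1 and LOC4326189, and 25 with the phr1 and phr3 arrays alone, among them HSFA3, TIFY11E, TIFY11A, TIFY10A and CYCB2-2. Calls lost numbered 21 with median centring, 5 with the replicate block, 40 without phr1 replicate 2, 9 without the phr123 arrays and 0 without the array labelled phr123 replicate 1. Signals near the reporter level, 48.4 to 87.6 over the 12 arrays, limit the size of a difference.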

Other observations

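The array labelled phr123 replicate 1 differed from replicates 2 and 3 in several probe sets that separate phr1 from phr3. The LOC4326189 probe set, bright in phr3 and near background in phr1, read 2.0 on that array and 8776 and 8642 in replicates 2 and 3. LOC4340325 read 2608, 2190 and 2172 in phr123, bright on all 3 arrays. Of the 3 probe sets without a gene that were bright in phr1, the one with the highest phr1 signal read 3.3, 185 and 152, the one with the next highest 68.0, 602 and 533, and the last 717.5, 341 and 389. Of these 5 probe sets, 3 were above the reporter level on that array and 5 in each of replicates 2 and 3. The counts without that array are given with the counts of called probe sets above.

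Some genes lower in phr1 than in phr3 were high in phr123. CYP701A8 read 4382, 4394 and 4892 in phr123 against 236 to 283 in phr1 and 358 to 499 in phr3. PAL06 read 20127, 17564 and 18595 in phr123, and PT8 4116, 4173 and 4383. SPX2 read 2085, 1624 and 1960 in phr123, a range that overlaps its 1953 to 2058 in phr1.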
